A study of Bos taurus with 4 samples.

Results

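Transcripts at the genes of 6 structured housekeeping RNAs were followed in 4 skeletal muscles of cattle. They were chosen by name and position: antisense transcripts, that is those overlapping an exon on the opposite strand, whose nearest gene is named RNase MRP, Metazoa SRP, 5.8S rRNA, U6, 7SK or Vault. There were 16 such transcripts at 12 loci, of 2516 antisense transcripts and 63845 noncoding candidate transcripts in all, and none of these names occurred among the intronic or intergenic transcripts. The rule used no measured level, but it was set with earlier results of these data known. Total RNA of 3 female Hereford cattle aged 18 months was mixed in equal amounts for each muscle and sequenced as a single library. The muscles were longissimus thoracis (of the back), a scapula muscle (of the shoulder), gluteus (of the rump) and an intercostal muscle (between the ribs). The animals came from a single feedlot, ate wet corn silage and received no treatment named in the labels. With 1 pooled library per muscle no difference could be set against a spread between animals, and no p-value was computed.

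These RNAs work inside RNA-protein particles that nearly every cell needs. RNase MRP is an enzyme with an RNA core that cuts the ribosomal RNA precursor, a cut on the way to the 5′ end of 5.8S ribosomal RNA, which pairs with the 28S RNA in the large ribosomal subunit. The signal recognition particle (SRP) is built on an RNA scaffold and brings ribosomes that make secreted or membrane proteins to the endoplasmic reticulum. U6 is the small nuclear RNA at the catalytic centre of the spliceosome, 7SK RNA holds the elongation kinase P-TEFb inactive, and vault RNAs belong to the large cytoplasmic vault particle. RNA polymerase III makes all of them except 5.8S, which RNA polymerase I makes as part of the ribosomal precursor.

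Levels are in FPKM, a read number divided by transcript length and by a library total, so they can be compared between transcripts of unequal length. Reads and lengths were recovered from the FPKM values, and a range in parentheses is an exact 95% Poisson interval. Such an interval covers counting error only, and no spread between animals or libraries. PCR copies are not independent molecules, so it can be too narrow even for counting error. Recovered reads numbered 1136247 in gluteus, 1330224 in intercostal muscle, 1512128 in the scapula muscle and 2110057 in longissimus thoracis, and 1 read on 300 nucleotides (nt) was worth 1.56 to 3.01 FPKM. These sums were 99.0% to 103% of the library totals. A total is thus close to the reads of the listed transcripts and does not give the sequencing depth. Only values above 0 are listed, and a transcript not listed is given no fold and no upper limit. No source used here states a strand setting, so reads of an RNA gene cannot be told apart from reads of the transcript opposite it, and each value below is that of the listed transcript. In pooled bulk RNA, fewer cells of a type and less RNA per cell cannot be told apart either. Of 10 muscle marker genes, 2 had an antisense transcript, and these were listed in every muscle, opposite ACTN2 at 7981 to 15571 FPKM and opposite MYF6 at 379.7 to 652 FPKM.

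The transcript at RNase MRP was the most abundant of the 16 in every muscle. It was 292 nt long (TCONS_00236040, opposite ENSBTAT00000059450) and reached 51353 FPKM (50575 to 52140.3) in gluteus, 31668 FPKM (31145 to 32198) in the scapula muscle, 24652 FPKM (24158 to 25153) in intercostal muscle and 3598 FPKM (3450.2 to 3749.8) in longissimus thoracis. No neighbours in this order had overlapping intervals. Gluteus stood 14.3-fold above longissimus thoracis and 1.62-fold above the scapula muscle, and the scapula muscle 1.28-fold above intercostal muscle. Its 16607 reads in gluteus were 14995 reads-per-million (RPM) of the library total, and it ranked 2 of all listed transcripts there. In longissimus thoracis its 2240 reads were 1051 RPM, at rank 11. The rank was 4 in both other muscles.

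Both SRP transcripts were low in longissimus thoracis, and their order in the other muscles was opposite. The first, of 207 nt (TCONS_00136786), reached 10745 FPKM (10360 to 11141) in intercostal muscle, 9630 FPKM (9290 to 9980) in the scapula muscle, 4947 FPKM (4663 to 5243) in gluteus and 186 FPKM (148 to 231) in longissimus thoracis. The second, of 278 nt and at another locus (TCONS_00253156), reached 3300 FPKM (3100 to 3509) in gluteus, 899 FPKM (811 to 995) in the scapula muscle, 693 FPKM (610.3 to 784) in intercostal muscle and 82.7 FPKM (61.2 to 109) in longissimus thoracis. Gluteus was thus the lowest of these 3 muscles for the first and the highest for the second. The first transcript had 57.8-fold more FPKM in intercostal muscle than in longissimus thoracis, and the second had 39.9-fold more in gluteus than in longissimus thoracis. No intervals overlapped within either transcript.

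The reads of the 2 SRP loci did not keep 1 ratio. The first had 11.5 times the reads of the second in intercostal muscle (2933 against 254 reads), 7.97 times in the scapula muscle (3014 against 378), 1.67 times in longissimus thoracis (82 against 49) and 1.12 times in gluteus (1134 against 1016). No source used here says how the authors assigned reads that match several SRP copies. A sum over both loci depends less on that assignment. It came to 2417 RPM (2334 to 2502) in intercostal muscle, 2243 RPM (2169 to 2320.3) in the scapula muscle, 1941 RPM (1860.1 to 2025) in gluteus and 61.4 RPM (51.4 to 72.9) in longissimus thoracis. On the sum the scapula and intercostal muscles and gluteus lay within 1.5-fold of each other, and longissimus thoracis remained far below all 3.

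The 5.8S name was carried by 4 transcripts of 1 locus, and the read numbers of the 3 longest were nearly equal in longissimus thoracis and intercostal muscle but not in the other libraries. Transcripts of 1456, 1455 and 1212 nt (TCONS_00148616, TCONS_00148615 and TCONS_00148617) each had 53 reads in longissimus thoracis. In intercostal muscle they had 452, 451 and 451 reads. In the scapula muscle the numbers were 1989, 1941 and 1693, and in gluteus 2249, 2215 and 1656. The first 2 differ by 1 nt in length and the third is 244 nt shorter than the first. The files hold no coordinates, so whether these transcripts overlap and share reads was not tested. Among other antisense transcripts of 1 locus with 20 or more reads, 1 of 28 pairs in longissimus thoracis, 1 of 23 in intercostal muscle, 3 of 27 in the scapula library and 3 of 24 in gluteus lay within 1 read of each other. The fourth transcript, of 796 nt (TCONS_00149942), was not listed for longissimus thoracis and had 77 reads in intercostal muscle, 402 in the scapula muscle and 620 in gluteus. Summing all 4 gave 3.00 to 3.17 times the reads of the longest transcript, and that transcript alone stands for the locus here.

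**Figure D1:**
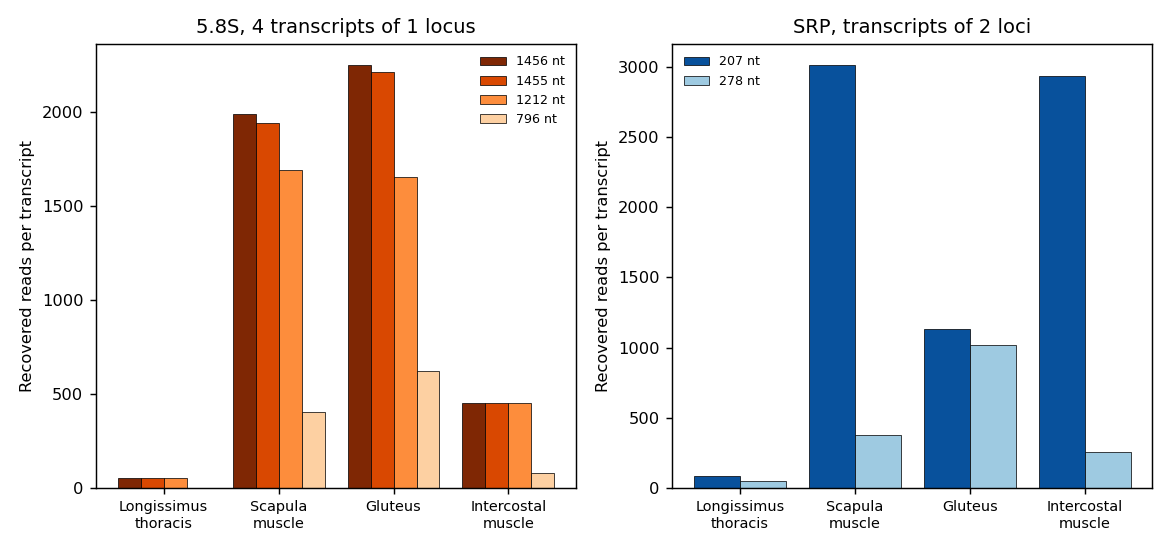
Recovered reads (vertical axis, from 0) of each transcript at the 5.8S locus (left) and at the 2 SRP loci (right) in the 4 muscles, 1 bar per transcript, labelled by length. The 3 longer 5.8S bars are level in longissimus thoracis (53 reads each) and in intercostal muscle (451 to 452), and the 207 nt SRP bar exceeds the 278 nt bar by 1.12 times in gluteus and 11.5 times in intercostal muscle.

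At the 5.8S locus the longest transcript reached 1395 FPKM (1338 to 1454) in gluteus, 904 FPKM (864 to 944) in the scapula muscle, 235 FPKM (214 to 258) in intercostal muscle and 17.1 FPKM (12.8 to 22.3) in longissimus thoracis. Every muscle was separated from the next by more than the counting intervals. Gluteus lay 81.7-fold above longissimus thoracis, the widest ratio between muscles of any of these transcripts, 5.92-fold above intercostal muscle and 1.54-fold above the scapula muscle. Intercostal muscle lay 13.8-fold above longissimus thoracis. The 796 nt transcript had the same order among the muscles that listed it, with 703 FPKM (649 to 761) in gluteus, 334 FPKM (302 to 368) in the scapula muscle and 73.4 FPKM (57.9 to 91.7) in intercostal muscle. These transcripts are several times longer than mature 5.8S RNA, so they extend beyond it.

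**Figure D2:**
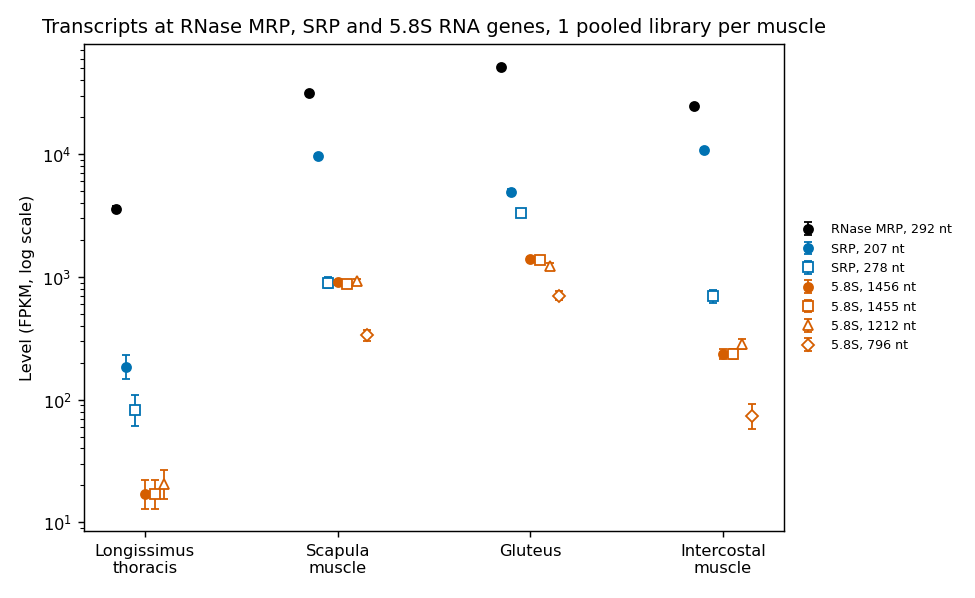
Level in FPKM (vertical axis, log scale) of the 7 transcripts that reached 100 FPKM, by muscle, with exact 95% Poisson intervals of the reads as error bars. The 6 listed for longissimus thoracis are lowest there, with RNase MRP at 3598 FPKM, and the 796 nt 5.8S transcript is not listed there and so not drawn.

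The levels of the transcripts at these genes, named here by the gene, differed relative to one another between muscles. RNase MRP had 19.4 times the FPKM of the first SRP transcript in longissimus thoracis and 10.4 times in gluteus, but 3.29 and 2.29 times in the scapula and intercostal libraries. Against the longest 5.8S transcript, RNase MRP stood 211 times as high in longissimus thoracis, 105 times in intercostal muscle, 36.8 times in gluteus and 35.0 times in the scapula library. The first SRP transcript stood 10.9 and 10.7 times as high as 5.8S in longissimus thoracis and the scapula muscle, 3.55 times in gluteus and 45.6 times in intercostal muscle. Longissimus thoracis was thus further below the other muscles for the first SRP transcript and 5.8S than for RNase MRP. Together the 16 transcripts held 1278 RPM there, 10807 in intercostal muscle, 15568 in the scapula library and 23168 in gluteus. These totals add up the reads of all 4 transcripts of the 5.8S locus. With only the transcript of highest mean level for each RNA, the totals were 1142, 9808, 12603 and 18117 RPM in the same order.

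U6 was represented by 7 transcripts at 6 loci. In gluteus and the scapula and intercostal libraries each was below every RNase MRP, SRP and 5.8S transcript. In longissimus thoracis those of 479 and 417 nt, at 52.9 and 31.5 FPKM, stood above the listed 5.8S transcripts (17.1 to 20.5 FPKM) and below both SRP transcripts. The 2 transcripts of 1 locus were listed in every muscle. The longer, of 1501 nt (TCONS_00087116), reached 44.5 FPKM (35.0 to 55.9) in gluteus, 31.3 FPKM (24.4 to 39.5) in the scapula muscle, 28.3 FPKM (21.4 to 36.7) in intercostal muscle and 11.9 FPKM (8.40 to 16.3) in longissimus thoracis. Longissimus thoracis was the lowest, and the intervals of the other 3 muscles overlapped. The shorter, of 1431 nt (TCONS_00089247), reached 48.0 FPKM (37.8 to 60.02) in gluteus, 37.6 FPKM (29.4 to 47.5) in intercostal muscle, 13.8 FPKM (9.92 to 18.6) in longissimus thoracis and 12.02 FPKM (7.85 to 17.6) in the scapula muscle. Here longissimus thoracis and the scapula muscle overlapped, as did gluteus and intercostal muscle, and the first pair lay below the second. Reads of the 2 transcripts were close in longissimus thoracis (38 and 42) and gluteus (74 and 76), and apart in the scapula muscle (71 and 26).

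The other U6 loci ran the other way or had few reads. A transcript of 479 nt (TCONS_00015351) had 1 read in intercostal muscle, 1.58 FPKM (0.0401 to 8.82), and reached 20.7 FPKM (10.4 to 37.1) in gluteus, 23.5 FPKM (13.7 to 37.6) in the scapula muscle and 52.9 FPKM (39.7 to 68.99) in longissimus thoracis. It was highest in longissimus thoracis, and its scapula and gluteus intervals overlapped. One of 417 nt (TCONS_00103372) had 28 reads in longissimus thoracis, 31.5 (20.9 to 45.5) FPKM, and 2 reads in the scapula muscle, 3.17 (0.384 to 11.5) FPKM. One of 616 nt (TCONS_00088840) had 20 reads in the scapula library and 13 in the intercostal one, at 21.5 (13.1 to 33.2) and 16.0 (8.52 to 27.4) FPKM. Of the last 2, TCONS_00199532 was listed for longissimus thoracis alone, with 13 reads, and TCONS_00055452 for the scapula muscle alone, with 3 reads. Summed over its 7 transcripts, U6 spanned a narrower range between muscles than RNase MRP, SRP or 5.8S, with 145 RPM (124 to 170) in gluteus, 107 RPM (90.01 to 126) in intercostal muscle, 91.9 RPM (77.3 to 109) in the scapula muscle and 82.1 RPM (70.4 to 95.2) in longissimus thoracis. The gluteus interval lay above those of longissimus thoracis and the scapula muscle and overlapped that of intercostal muscle. This sum joins loci that ran opposite ways and 2 transcripts of 1 locus that may share reads. The 1501 nt transcript alone had 17.8 RPM in longissimus thoracis and 66.8 RPM in gluteus.

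The transcripts at 7SK and Vault were listed for longissimus thoracis and for no other muscle. At 7SK (TCONS_00186281) there were 10 reads, 45.5 (21.8 to 83.7) FPKM, and at Vault (TCONS_00152803) 11 reads, 21.0 (10.5 to 37.5) FPKM. Where 1 library lists a transcript its recovered reads and length are lower bounds, and a higher read number would give a narrower Poisson interval. With the U6 transcript of 13 reads this made 3 of the 16 transcripts listed for longissimus thoracis alone, or 18.8%, against 6.44% of all antisense transcripts and 20.4% of all transcripts. That library also has the most recovered reads of the 4, and the part of read number was not tested.

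**Figure D3:**
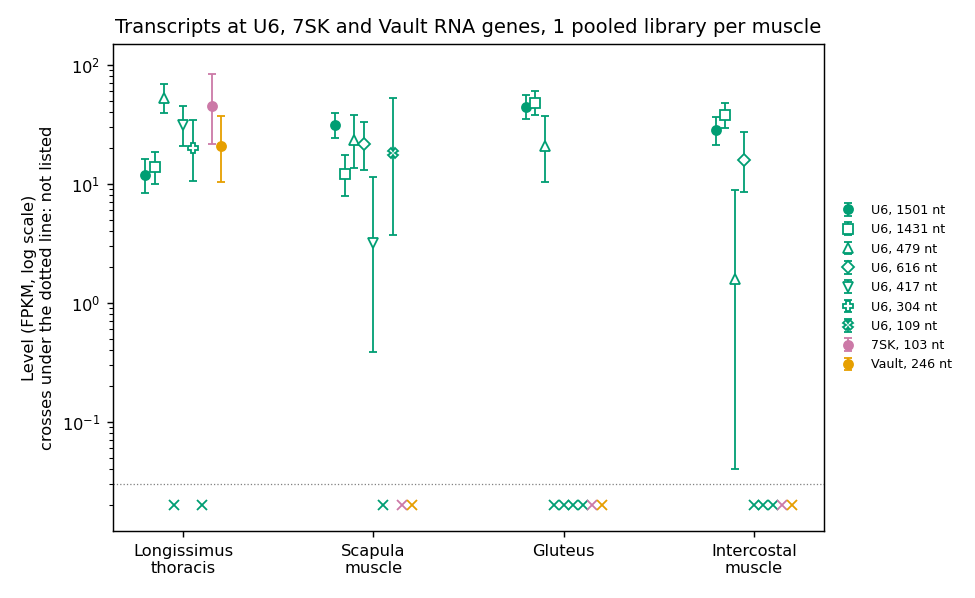
Level in FPKM (vertical axis, log scale) of the 9 transcripts at U6, 7SK and Vault genes, labelled by length in nt, by muscle, with exact 95% Poisson intervals of the reads as error bars and crosses under the dotted line for those not listed. The 7SK and Vault points stand in longissimus thoracis alone, at 45.5 and 21.0 FPKM, and the 479 nt U6 transcript is at 52.9 FPKM in longissimus thoracis and 1.58 in intercostal muscle.

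Each muscle was next compared with the other 3 by a rule of size. A transcript was called where log2((FPKM + 1)/(median of the other 3 muscles + 1)) was 1 or more, or -1 or less, which is a 2-fold change, and some library reached 1 FPKM. A transcript not listed entered as 0. This scale understates the change of low transcripts. In longissimus thoracis 10 of the 16 transcripts were lower and 5 higher, where 21.3% and 37.2% of all 63839 transcripts that could be called were lower and higher. The 10 lower ones lay at 6 loci. Of the 9 transcripts listed in every muscle 8 were lower, at 5 loci counting 5.8S once, where 25.6% of the 1420 antisense transcripts listed in every muscle were lower. The exception was the 479 nt U6 transcript, at a log2 ratio of 1.31. The 5 higher ones were this one, the U6 transcripts of 417 and 304 nt, 7SK and Vault, with 10 to 54 reads each in longissimus thoracis. Their share was below that of all transcripts but above the 21.8% of all antisense transcripts higher there. The median log2 ratio of the 9 listed in every muscle was -3.43, against -0.03 for the 1420.

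The single log2 ratios in longissimus thoracis were -3.14 for RNase MRP, -5.69 and -3.43 for the first and second SRP transcripts and -5.65 for the longest 5.8S transcript. Of the 1419 other antisense transcripts listed in every muscle, 79 had a lower ratio than RNase MRP, 8 a lower one than the first SRP transcript and 9 a lower one than the longest 5.8S transcript. The 1419 include the other transcripts at these RNA genes that were listed in every muscle. Few antisense transcripts of such abundance were that low. At a mean of 500 FPKM or more, a limit chosen after the values were seen, there were 91 others listed in every muscle, of which 21, or 23.1%, were lower in longissimus thoracis and 5 had a log2 ratio under -3. Those 5 lay at KLHL34, FBLN2, JUN, SNORA74 and ENSBTAG00000045710.

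**Figure D4:**
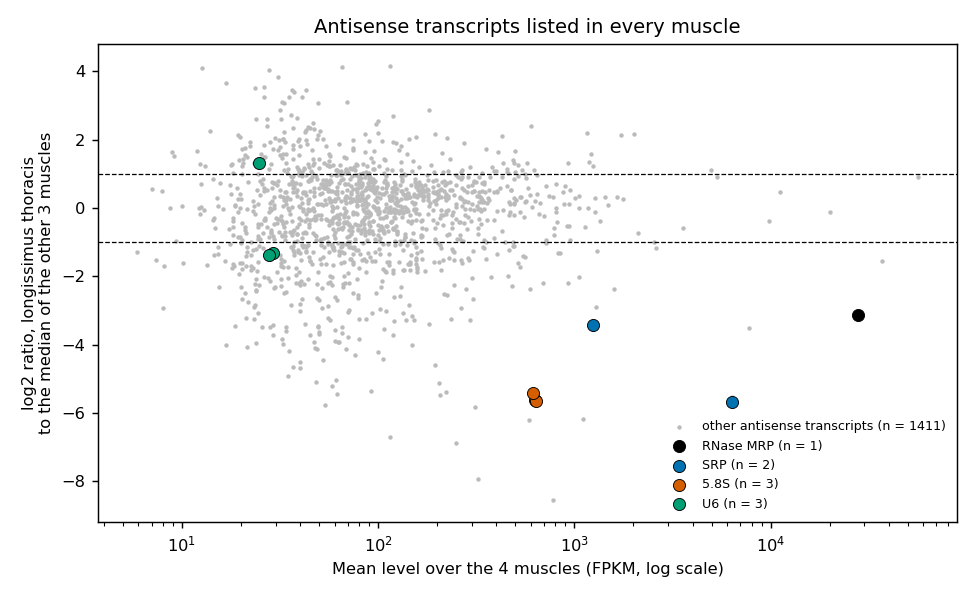
The log2 ratio of longissimus thoracis to the median of the other 3 muscles (vertical axis) against mean FPKM over the 4 muscles (horizontal axis, log scale), for the antisense transcripts listed in every muscle, with dashed lines at the 2-fold limits. RNase MRP (-3.14), both SRP (-5.69 and -3.43) and the 5.8S transcripts (-5.65 to -5.43) lie below most of the 1411 other points, and the 3 U6 points lie at -1.39, -1.33 and 1.31.

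Other features of the longissimus thoracis library were set beside this result. Of the 82 antisense transcripts with small nucleolar or Cajal body RNA names, 37 were lower there, or 45.1%, and 16 were higher, with a median log2 ratio of -0.61, where 30.8% of all antisense transcripts and 21.3% of all transcripts were lower. By length, the other antisense transcripts listed in every muscle were lower in 23 of 62 cases under 300 nt (37.1%), 112 of 461 between 1200 and 2400 nt (24.3%) and 38 of 245 above that (15.5%). RNase MRP and both SRP transcripts are under 300 nt, while the 3 longer 5.8S transcripts are 1212 to 1456 nt. Transcripts under 300 nt took 12.9% of all reads in longissimus thoracis and from 9.19% (gluteus) to 12.5% (scapula) elsewhere. The part of length or library make-up in the low levels was not tested.

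In the scapula muscle 7 transcripts were higher and 1 lower, where 43.2% and 11.3% of all transcripts were. The share of higher ones was thus close to that of all transcripts, and above the 27.5% of all antisense transcripts higher there. The 7 were the 4 of the 5.8S locus and 3 at U6, which had at most 20 reads each there. Without longissimus thoracis among the reference muscles the 5.8S transcripts were no longer higher, with a log2 ratio of 0.15 for the longest, and 4 transcripts in all were higher. The lower one was the 1431 nt U6 transcript.

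In gluteus 7 were higher and 2 lower, where 18.6% and 23.7% of all transcripts were. The higher ones were RNase MRP (log2 ratio 1.06), the second SRP transcript (2.25), the 4 of 5.8S (2.12 to 3.24) and the 1431 nt U6 transcript (1.73). Of the 9 listed in every muscle, 6 were higher, where 14.4% of the antisense transcripts listed in every muscle were. Counting 5.8S once left 4 transcripts higher. RNase MRP fell short of 2-fold without longissimus thoracis in the reference, at 0.87. The first SRP transcript was not called, at -0.96, but was lower without longissimus thoracis in the reference, at -1.04, and the 2 lower ones were U6 transcripts not listed for gluteus.

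In intercostal muscle 3 were higher and 6 lower, where 26.4% and 17.9% of all transcripts were. The first SRP transcript was higher at a log2 ratio of 1.12, with the U6 transcripts of 1431 and 616 nt, and none of these 3 remained without longissimus thoracis in the reference. The 4 of the 5.8S locus were lower, at -1.94 for the longest, as were the U6 transcripts of 479 nt (-3.24, from 1 read) and 417 nt (not listed there). Counting 5.8S once left 3 lower. For the longest 5.8S transcript the ratio was -0.96 without gluteus in the reference.

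Antisense transcripts most like the transcript at each RNA gene were named among 1037 with 20 or more reads in every library. The measure was the root mean square difference of log2(FPKM + 1) over the 4 muscles, each centred on its own mean. With 4 libraries this is a description. The RNase MRP profile was nearest to SH3BP5, at a difference of 0.0934, followed by SIAT4B at 0.0957, HIF1AN, CARKD and ARHGEF10L, where the median of all was 1.51. The transcript at SH3BP5 stood at 327 FPKM in gluteus, 221 in scapula, 155 in intercostal and 20.1 in longissimus libraries, so it had RNase MRP's pattern at a far lower level. Nearest to the first SRP transcript were MGLL (0.406), CAMK2B (0.577), SNORA74 (0.602), UBE2G2 (0.879) and SEC61A1 (0.896), where the median of all was 2.45. SEC61A1, the farthest of these 5, encodes the channel of the endoplasmic reticulum membrane. The transcript opposite it had 160 FPKM in the scapula library against 11.9 in longissimus thoracis, where the first SRP transcript had 9630 against 186 FPKM. Nearest to the longest 5.8S transcript, after 2 of its own locus, were SNORA74 (0.710), the second SRP transcript (0.805) and ARHGEF10L (0.889). The 1501 nt U6 transcript was nearest to TBX15 (0.0504), DPY19L1, ZDHHC7, NFATC1 and FLVCR1.

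Transcripts opposite genes of the same particles were few. Of 9 genes of the signal recognition particle and its receptor, 3 had an antisense transcript, and in longissimus thoracis 1 of these was higher and none lower. Of all transcripts 37.2% were higher there and 21.3% lower, and of all antisense transcripts 21.8% and 30.8%. Opposite SRP9, a protein of the RNA's Alu domain, the level was 549 FPKM (521 to 577) in longissimus thoracis, 359 FPKM (329 to 392) in gluteus, 321 FPKM (295 to 349.7) in intercostal muscle and 162 FPKM (145 to 182) in the scapula muscle. This was highest where both SRP transcripts were lowest, but it was not called higher there, at a log2 ratio of 0.77. Opposite SRP14, its partner protein, longissimus thoracis had 249 (213 to 288) FPKM, gluteus 73.4 (48.4 to 107) and intercostal muscle 68.5 (46.2 to 97.8), and the scapula muscle was not listed. Opposite SRP72 all 4 muscles lay between 108 and 131 FPKM.

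For RNase MRP and its relative RNase P, 2 of 11 protein genes had an antisense transcript. Opposite RPP14 it stood at 42.3 (35.5 to 50.04) FPKM in longissimus thoracis and between 62.3 and 65.4 FPKM elsewhere, and opposite RPP40 it was not listed for longissimus thoracis and had 6 to 19 reads elsewhere. Of 27 genes of RNA polymerase III and its factors, 3 had antisense transcripts, 4 in all. Opposite POLR3E, a polymerase subunit, longissimus thoracis had 122 (99.9 to 148) FPKM, gluteus 31.4 (17.1 to 52.6) and the scapula muscle 11.5 (4.62 to 23.7), with intercostal muscle not listed. Those at BRF1 and SNAPC2 were listed for the scapula muscle alone, with at most 7 reads. No antisense transcript was found for the 7 genes of the 7SK particle and P-TEFb, the 14 of the U6 particle, the 3 of vaults or the 16 of La and 5.8S end maturation.

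Of 16 other names of structured small RNAs, U8 alone had an antisense transcript. U8 is a small nucleolar RNA needed to process the precursor of 5.8S and 28S RNA. Its transcript reached 1352 FPKM (1256 to 1453) in gluteus, 180 FPKM (151 to 213) in the scapula muscle, 112 FPKM (92.9 to 134) in longissimus thoracis and 67.7 FPKM (49.2 to 90.9) in intercostal muscle. It was highest in gluteus, as were RNase MRP and 5.8S, and lowest in intercostal muscle, where they were not.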

How the data were processed

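Total RNA of 4 cattle muscles, pooled from 3 animals each, was sequenced as 1 library per muscle. The FPKM values were made and deposited by the authors, and the submitters' processing notes name TopHat2 2.0.9, Cufflinks 2.1.1 and the build UMD3.1 with no role or order. No source used here gives strand settings, filters or the treatment of reads that match several places. Class and nearest gene were read from the transcript identifiers, which give no coordinates or sequence, so none is printed.

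Each library total was found as the common factor at which all 115374 values equal whole reads over whole lengths (relative error under 1e-11). A transcript's length was the least common multiple of its lengths over the libraries that list it, and reads follow from it, so both are lower bounds. Recovered reads summed to 99.0% to 103% of the totals. The recovery and the size rule were run on simulated Poisson reads built from the recovered lengths. That checks the code, and not extra spread or shared reads in the data. Python 3.11.15, pandas 2.3.3 and scipy 1.17.1 were used. The likeness rule was as stated in the text, and transcripts reaching 100 FPKM, and others of few reads, are named because all 16 are accounted for. Members and lists were chosen with earlier results of these data known. The alternatives were other pseudocounts, folds, read minimums, reference muscles, scalings and counting of copies.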

Additional observations from a re-analysis of the deposited data

How the results depend on the processing

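In longissimus thoracis the counts (10 lower, 5 higher) stayed within 1.5 times under every alternative run, and the sign and the size class of each named ratio and of the median were kept. Among all transcripts the share lower there was 21.3%, and 35.8%, 50.4% and 46.8% without the scapula muscle, gluteus or intercostal muscle in the reference. Of the 16 transcripts 10, 10 and 11 were then lower. Beyond each other muscle the share was 6.07%, with 8 of the 16 lower. The share of all transcripts higher there ranged from 27.9% to 39.7%. No scaling moved the median log2 ratio of transcripts listed in every muscle by more than 0.1. Of 196 alternative values of named ratios 171 kept direction and call, 17 kept direction with another call and 8 changed sign, none of these in longissimus thoracis. Direction and call were kept by 34 of 36 medians and 68 of 72 family sums. Counts in the other muscles depended on the rule. Higher in the scapula muscle were 4 by a 4-fold rule, 1 beyond each other muscle, 4 and 3 with longissimus thoracis or intercostal muscle out of the reference, and 4 with the 5.8S locus counted once, a choice made after seeing the data. Of all transcripts, 37.1%, 25.9%, 36.3%, 36.7% and 43.2% were in turn higher. Lower there were 0 by 4-fold, 0 beyond each other muscle, and 2, 5 and 5 without longissimus thoracis, gluteus or intercostal muscle. The shares of all transcripts were 7.78%, 1.74%, 28.3%, 44.6% and 40.7%. In gluteus 2 were higher beyond each other muscle and 4 with 5.8S once, and lower were 1 at a pseudocount of 5 FPKM, 0 beyond each other muscle, and 4, 5 and 6 without longissimus thoracis, scapula or intercostal muscle. Of all transcripts 9.5% and 18.6% were higher, and 18%, 5.1%, 53%, 53.7% and 64.9% lower. In intercostal muscle 1 was higher by 4-fold, 0 beyond each other muscle and 0 without longissimus thoracis (21.8%, 13.8% and 20.5% of all transcripts). Lower were 3 by 4-fold, 1 beyond each other muscle, 10 without the scapula muscle and 3 with 5.8S once (13.3%, 3.26%, 45.3% and 17.9%). The intercostal median log2 ratio went from -0.25 to -1.06 without longissimus thoracis and -1.42 without the scapula muscle. The 796 nt 5.8S transcript (TCONS_00149942) turned in the scapula muscle from 2.17 to -0.22 and -0.074 without longissimus thoracis or intercostal muscle. The second SRP transcript (TCONS_00253156) went there from 0.38 to -1.15 and -0.91, and RNase MRP (TCONS_00236040) from 0.36 to -0.26 without longissimus thoracis. By the highest copy alone, U6 turned from -0.22 to 0.14 in the scapula muscle and from 0.22 to -0.14 in intercostal muscle, SRP in intercostal muscle reached 1.12 (0.32 summed) and U6 in longissimus thoracis -1.35 (-0.38 summed). A reference of 2 muscles is their mean, by construction nearer to a high value. No paired analysis was possible because each muscle had 1 library of pooled RNA. Low read numbers limit the single U6, 7SK and Vault transcripts (at most 76 reads in a library) and summed U6 (139 to 175 reads).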
